A study of Arabidopsis thaliana with 8 samples.

Results

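The genes described here are the cysteine-rich receptor-like kinases (CRK) of Arabidopsis thaliana, CRK2 to CRK42, measured by RNA sequencing of whole seedlings in wild type and in 3 mutants of the SAGA complex. Of 40 CRK loci in a table of 32548 genes, 33 reached a value of 10 in 2 or more of the 8 libraries, and these are the members described. The remaining 7, CRK23, CRK31, CRK32, CRK33, CRK37, CRK38 and CRK39, lay under that level. Compared were Col-0 as wild type, the single mutants hag1-/- and ada2b-/-, and the double mutant scs1-/-scs2a-/-, written scs1 scs2a here. Each had 2 libraries from 12-day-old seedlings grown on MS plates at 22 °C with 16 h of light and 8 h of dark. No treatment was applied to any group by the labels. The labels give neither the alleles, the number of lines nor whether both libraries of a genotype were grown apart, so p-values measure only the spread between these libraries.

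CRK proteins sit in the plasma membrane. An extracellular part with DUF26 domains, which carry conserved cysteines, is joined through a membrane span to a kinase inside the cell. Many family members are transcribed in response to pathogens, salicylic acid, ozone and other sources of reactive oxygen, and several raise immune output or cell death when overexpressed. SAGA is a coactivator complex that acetylates histones at active genes. HAG1, also called GCN5, is its acetyltransferase, ADA2B is an adaptor that works with HAG1, and SCS1 and SCS2A are subunits of the plant complex.

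The 8 libraries held 20570967 to 22344725 normalised counts each, with the highest totals in wild type and the lowest in scs1 scs2a. These are totals after the authors' normalisation, and are not the sequencing depth. HAG1 itself read 296.05 and 328.3 normalised counts in wild type against 131.41 and 133.33 in the hag1 libraries, for a log2 fold change of -1.23 (adjusted p = 2.92e-05, limma). ADA2B differed by -0.27 in ada2b (adjusted p = 0.0136, limma) with 566.59 and 613.23 normalised counts against 707.77 and 711.5, so its level neither checks nor contradicts the label, and SCS1 and SCS2A were not analysed here. Seedlings hold shoots and roots, and markers of both were present, with none of 6 green tissue genes and none of 8 root genes at 0. Their summed level shifted with genotype. The green sum was 646000 to 689000 in wild type and lower in the mutants, at 457000 to 479000 for hag1, 570000 to 573000 for ada2b and 484000 to 538000 for scs1 scs2a. The root sum, most of it the beta-glucosidase gene PYK10, was 44700 to 46200, 65200 to 84700, 50500 to 53000 and 57000 to 57500 in the same order. The root genes did not rise together. Their median log2 fold change was -0.18 for hag1, -0.11 for ada2b and 0.17 for scs1 scs2a. PYK10 rose in hag1 (0.75), while SCR fell in all 3 mutants (-0.43, -0.28 and -0.20) and SHR fell in ada2b (-0.65). In bulk RNA, a change in the share of a cell type and a change in RNA per cell cannot be told apart, and the part of these marker shifts in the CRK results was not tested.

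In wild type the most abundant member per length of exon was CRK18, at 342.8 normalised counts per kb, followed by CRK9 at 334.6, CRK10 at 301, CRK3 at 286.9, CRK40 at 248.1, CRK2 at 246.6 and CRK19 at 246.5. CRK17, CRK22, CRK21 and CRK29 lay between 195.3 and 231.9 per kb. CRK42 at 142 and CRK25 at 104.5 came next, and CRK11, CRK28, CRK34, CRK27, CRK30, CRK41 and CRK16 lay between 41.4 and 77.91. CRK14, CRK5, CRK20, CRK4, CRK26, CRK13 and CRK12 lay between 10.05 and 30.21 per kb. The least abundant members were CRK15, CRK6, CRK36, CRK24, CRK7 and CRK8, from 9.443 down to 2.402 per kb. The family therefore spanned levels from well sampled to a few reads per kb in the same seedlings.

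**Figure D1:**
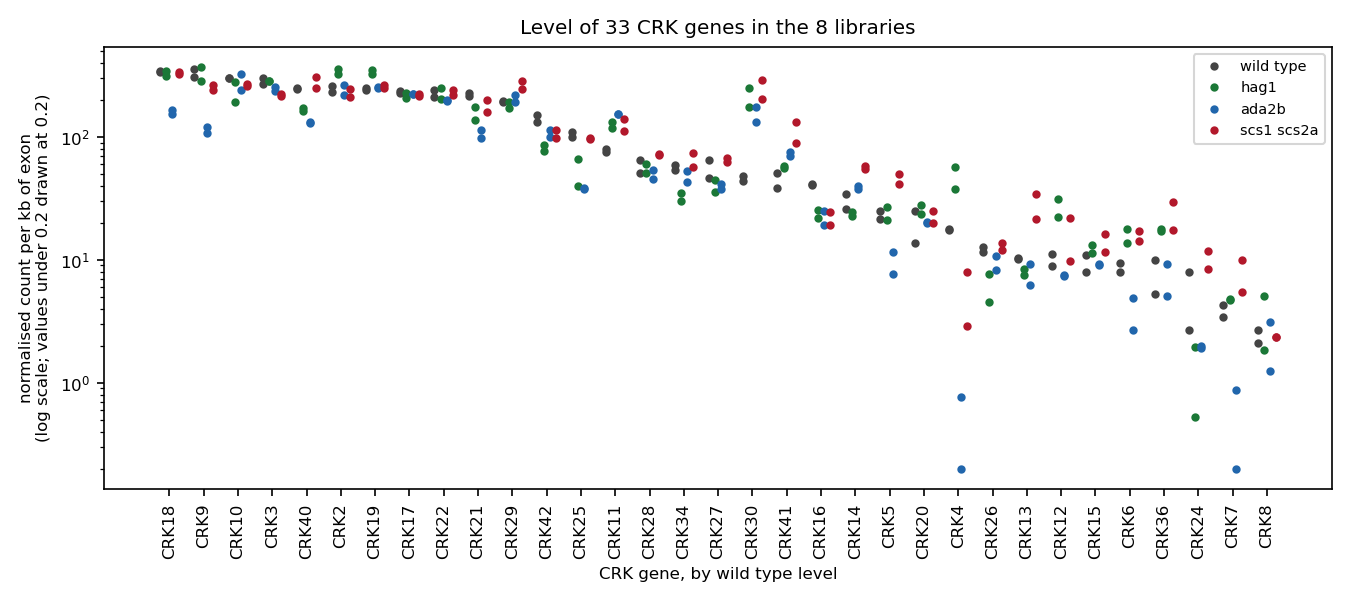
Normalised count per kb of exon (log scale) for each of the 33 members, ordered by wild type level, with 1 point per library coloured by genotype. By genotype means, which are not drawn, CRK30 rises from 46.01 per kb in wild type to 247.3 in scs1 scs2a, and CRK4 drops to 0.3818 in ada2b. The lowest library values are drawn at a fixed floor.

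The value rule let some genes in by a small margin. CRK24 and CRK8 reached 10 in 3 libraries, CRK7 in 4 and CRK4 in 5. CRK7 met the rule only through its hag1 and scs1 scs2a libraries, and CRK24 only through both scs1 scs2a libraries and Col-0 replicate 1, so the differences between those libraries and the rest were partly built in. Just outside, CRK31, CRK32, CRK37 and CRK39 reached 10 in 1 library each, with highest values of 14.378, 10.798, 15.502 and 12.546 normalised counts. CRK23 and CRK38 never reached 10, and CRK33 was listed at 0 in every library. CRK23 read 7.614 and 7.475 normalised counts in wild type and between 0.005 and 4.782 in the mutant libraries. In the test of genotypes, CRK23 was called lower in hag1 and ada2b, CRK32 lower in ada2b and CRK31 higher in scs1 scs2a, and none of these is counted among the members.

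CRK genes resemble each other and lie close together, which limits how well short reads separate them. By exact match over the TAIR10.1 genome, 13 of 33 members had no 50-base stretch of exon that recurs at another place. For 29 members, under 10% of the stretches recurred. A stretch inside overlapping gene models counts as a single place, so these shares leave such overlaps out. The 4 at or above 10% were CRK6 with 22%, CRK8 with 16.5%, CRK22 with 16.2% and CRK13 with 15.4%. Stretches of CRK6 matched 452 places in CRK8 and 39 in CRK9, and stretches of CRK8 matched 559 places in CRK6. CRK13 and CRK22 matched each other at 365 places. Some gene models also overlap, which counting without strand or with overlapping genes could blur. CRK16 and CRK17 overlap by 1190 bp on the same strand, CRK28 and CRK29 by 470 bp on the same strand, and CRK25 overlaps AT4G05190 by 492 bp on the opposite strand. Smaller overlaps were 32 bp between CRK10 and CRK11, 130 bp for CRK42, 102 bp for CRK19 and 305 bp between CRK29 and AT4G03065. The use of strand is not given in the sources used here, so values for CRK6, CRK8, CRK13, CRK16, CRK17, CRK22, CRK25, CRK28 and CRK29 are uncertain as values of single genes. CRK9, listed in the reference table as EP1, has a coding length of 798 bp, where the other members have 1587 to 3132 bp.

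The promoter windows of 4 members are printed because they belong to members whose changes carry the results. CRK30 had the largest called rise in each mutant, CRK4 and CRK9 had falls in ada2b, and CRK11, chosen after its values were seen, rose in all mutants. All 4 were thus picked by their changes in these data, and other members that fell in ada2b, such as CRK7, are not printed. Each is the 250 bases before the annotated start of the gene, read 5′ to 3′ on the gene's strand from the RefSeq TAIR10.1 assembly. Capitals mark the core of the W-box, TTGAC or its reverse complement GTCAA, the element that WRKY factors of the defence response bind.
CRK30, chr4:6963271-6963520, plus strand: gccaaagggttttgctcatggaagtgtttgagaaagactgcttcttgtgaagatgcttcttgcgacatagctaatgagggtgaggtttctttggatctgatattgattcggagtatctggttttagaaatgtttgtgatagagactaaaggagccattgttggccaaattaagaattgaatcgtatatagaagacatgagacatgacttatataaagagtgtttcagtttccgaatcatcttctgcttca
CRK11, chr4:12143859-12144108, minus strand: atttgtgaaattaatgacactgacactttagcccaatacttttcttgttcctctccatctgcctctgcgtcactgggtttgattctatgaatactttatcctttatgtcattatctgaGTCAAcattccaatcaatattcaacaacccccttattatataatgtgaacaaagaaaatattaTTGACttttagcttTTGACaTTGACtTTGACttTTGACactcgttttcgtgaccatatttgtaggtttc
CRK4, chr3:16866262-16866511, minus strand: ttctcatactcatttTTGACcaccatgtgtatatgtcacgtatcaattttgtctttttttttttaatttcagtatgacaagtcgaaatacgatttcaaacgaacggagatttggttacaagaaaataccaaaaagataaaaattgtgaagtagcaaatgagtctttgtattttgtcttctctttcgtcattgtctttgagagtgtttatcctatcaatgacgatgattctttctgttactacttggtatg
CRK9, chr4:12134723-12134972, plus strand: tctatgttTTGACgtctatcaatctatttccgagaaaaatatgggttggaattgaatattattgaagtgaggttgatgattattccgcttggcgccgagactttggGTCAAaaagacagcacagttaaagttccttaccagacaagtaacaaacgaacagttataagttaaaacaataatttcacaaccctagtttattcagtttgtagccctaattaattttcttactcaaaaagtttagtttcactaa

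CRK11 carried 6 W-box cores in this window, the most of any member, CRK9 carried 2, CRK4 carried 1 and CRK30 had none. Searched on both strands, the core TTGAC stood in 23 of 33 member windows, 69.7%, against 44.9% of 27443 promoter windows of the same length. The longer W-box, TTGACC or TTGACT, stood in 20 members, 60.6%, against 28.4%. The as-1 core TGACG, bound by TGA factors and overlapping TTGAC in the letters TTGACG, stood in 10 members, 30.3%, against 18.6%. The G-box CACGTG stood in 1 member, 3.03%, against 6.49%. Neighbouring CRK genes descend from shared copies and some windows lie inside the next gene model, as for CRK16 and CRK24, so these shares describe letters and are not a test.

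Differences between genotypes were tested with limma on log2(value + 1) across 25459 genes, with Benjamini-Hochberg adjustment over all of them and a call at an adjusted p under 0.05. In the 3 comparisons with wild type, which share the same 2 wild type libraries, the family did not move as a block. In hag1, 6 members were called higher and 8 lower, 42.4% of the members, against 44.3% of all genes tested, of which 21.3% were higher and 23% lower. In ada2b, 3 were called higher and 12 lower, 45.5% of the members against 48.1% of all genes, of which 24.7% were higher and 23.4% lower. Of all calls in ada2b, 51.3% were higher, a share of 44.6% with median-ratio and 45.7% with upper-quartile scaling of the libraries. In scs1 scs2a, 8 were called higher and 3 lower, 33.3% of the members against 19.9% of all genes, of which 7.86% were higher and 12.1% lower. Among genes held to the same value of 10 in 2 libraries, 49.1%, 53.2% and 22.5% were called in the same order. For hag1 and ada2b the shares called in either direction lay near the background. The median log2 fold change of the members was -0.04 for hag1, -0.24 for ada2b and 0.22 for scs1 scs2a, with 0, 0.03 and 0 over all genes.

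Changes of 1 or more on the log2 scale were fewer. In ada2b, 8 members were lower by that much and 1 higher, 24.2% and 3.03%, against 11.5% and 2.53% of all genes. In scs1 scs2a, 4 were higher and 0 lower, 12.1% against 1.21% higher and 2.6% lower among all genes. In hag1, 3 were higher and 2 lower, 9.09% and 6.06%, against 5.01% and 6.66%. Among genes held to the members' value rule, 11.3% were lower by that much in ada2b and 1.27% higher in scs1 scs2a.

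**Figure D2:**
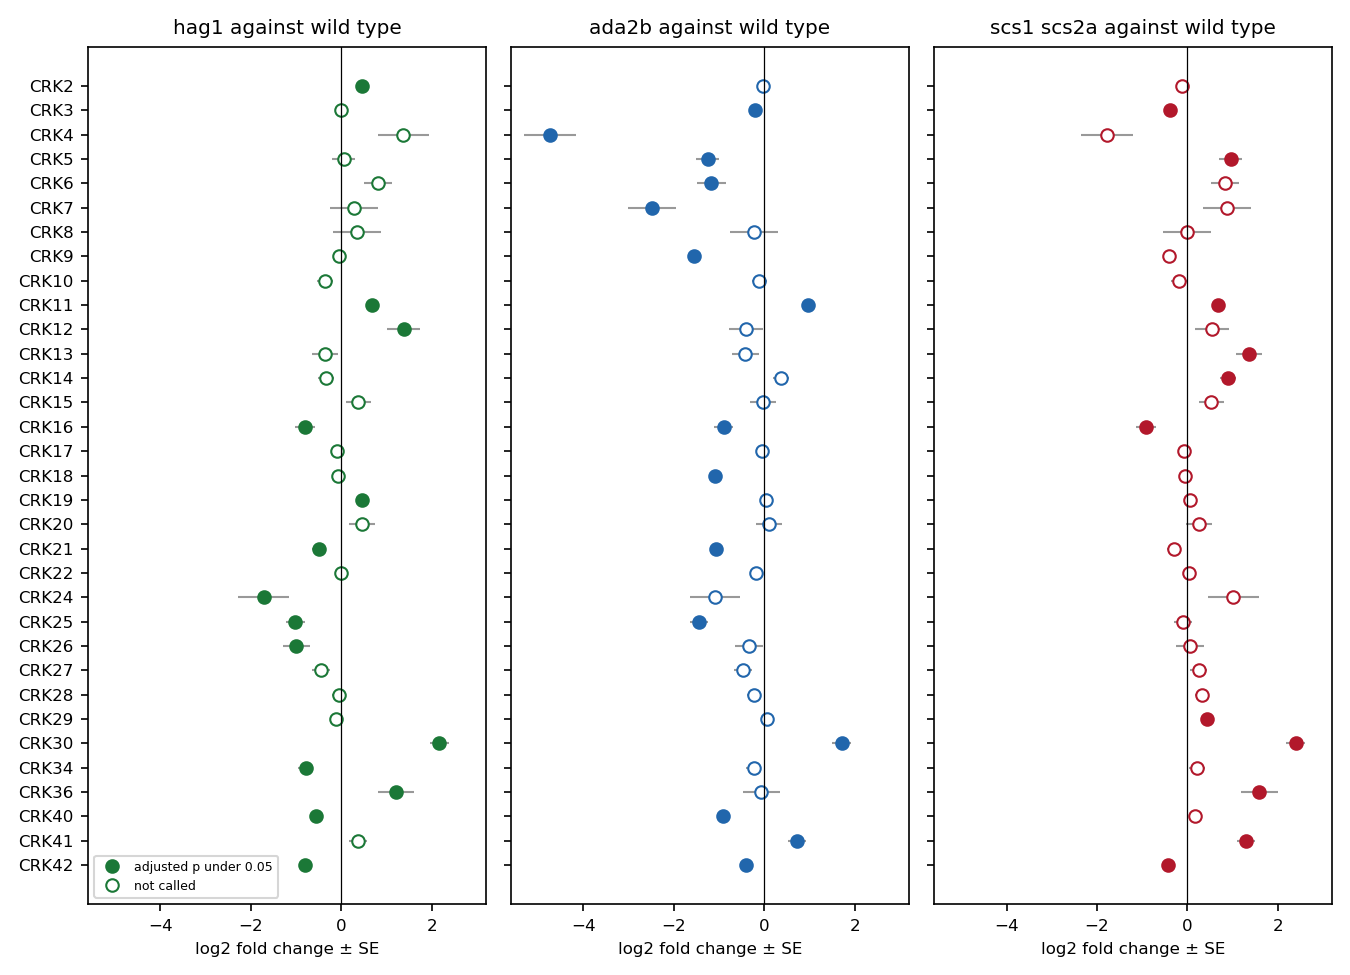
Log2 fold change against wild type with its standard error for each of the 33 members in hag1, ada2b and scs1 scs2a. Filled points passed an adjusted p of 0.05 and open points did not. CRK30 is furthest to the right in every panel, and CRK4 reaches -4.75 in ada2b.

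CRK30 (AT4G11460) rose in all 3 mutants and was the member with the largest called rise in each. Its wild type libraries read 107.8 and 119.3 normalised counts. The hag1 libraries read 615.6 and 430.0, those of ada2b 429.4 and 325.7, and those of scs1 scs2a 503.1 and 718.1. Every mutant library was above both wild type libraries. The log2 fold change was 2.17 ± 0.22 (SE) for hag1 (adjusted p = 0.000112, limma), 1.71 ± 0.22 for ada2b (adjusted p = 0.000362) and 2.40 ± 0.22 for scs1 scs2a (adjusted p = 0.00056), or 4.51-, 3.28- and 5.26-fold. CRK30 has no shared 50-base stretch with other genes and no overlapping model. CRK31 and CRK32, next to it by locus number, read at most 14.378 and 10.798 normalised counts. The difference between ada2b and hag1 did not pass the test (-0.46 ± 0.22, adjusted p = 0.121), nor did that between scs1 scs2a and hag1 (0.22 ± 0.22, adjusted p = 0.473). CRK30 was called higher in scs1 scs2a than in ada2b (0.68, adjusted p = 0.0443, limma), a call that ended in 6 of 16 alternative settings.

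CRK11 (AT4G23190), which is induced by pathogens, salicylic acid and oxidative stress, also rose in all 3 mutants, by less. It read 203.2 and 191.1 normalised counts in wild type. It read 301.5 and 333.4 with hag1, 386.4 in both ada2b libraries, and 284.1 and 351.9 with scs1 scs2a. The log2 fold changes were 0.68 ± 0.11 for hag1 (adjusted p = 0.0014, limma), 0.97 ± 0.11 for ada2b (adjusted p = 0.000231) and 0.68 ± 0.11 for scs1 scs2a (adjusted p = 0.00489). The wild type libraries lay below all 6 mutant libraries.

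Falls shared by all 3 mutants were those of CRK16 (AT4G23240) and CRK42 (AT5G40380). CRK16 read 84.78 and 83.23 normalised counts in wild type and 38.9 to 52.1 in the 6 mutant libraries, with log2 fold changes of -0.80, -0.90 and -0.91 in hag1, ada2b and scs1 scs2a, each with an SE of 0.215. CRK42 read 375.6 and 433.8 in wild type and 219.2 to 327.1 in the mutants, with log2 fold changes of -0.79, -0.40 and -0.43, each with an SE of 0.12. All 6 differences passed the adjusted threshold, and several of these calls ended when 1 library was left out. Reads of CRK16 and of CRK17, whose model overlaps it, may not be told apart. CRK17, whose symbol in the reference table is EMB1290, did not pass the test in any mutant, with log2 fold changes between -0.05 and -0.09.

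**Figure D3:**
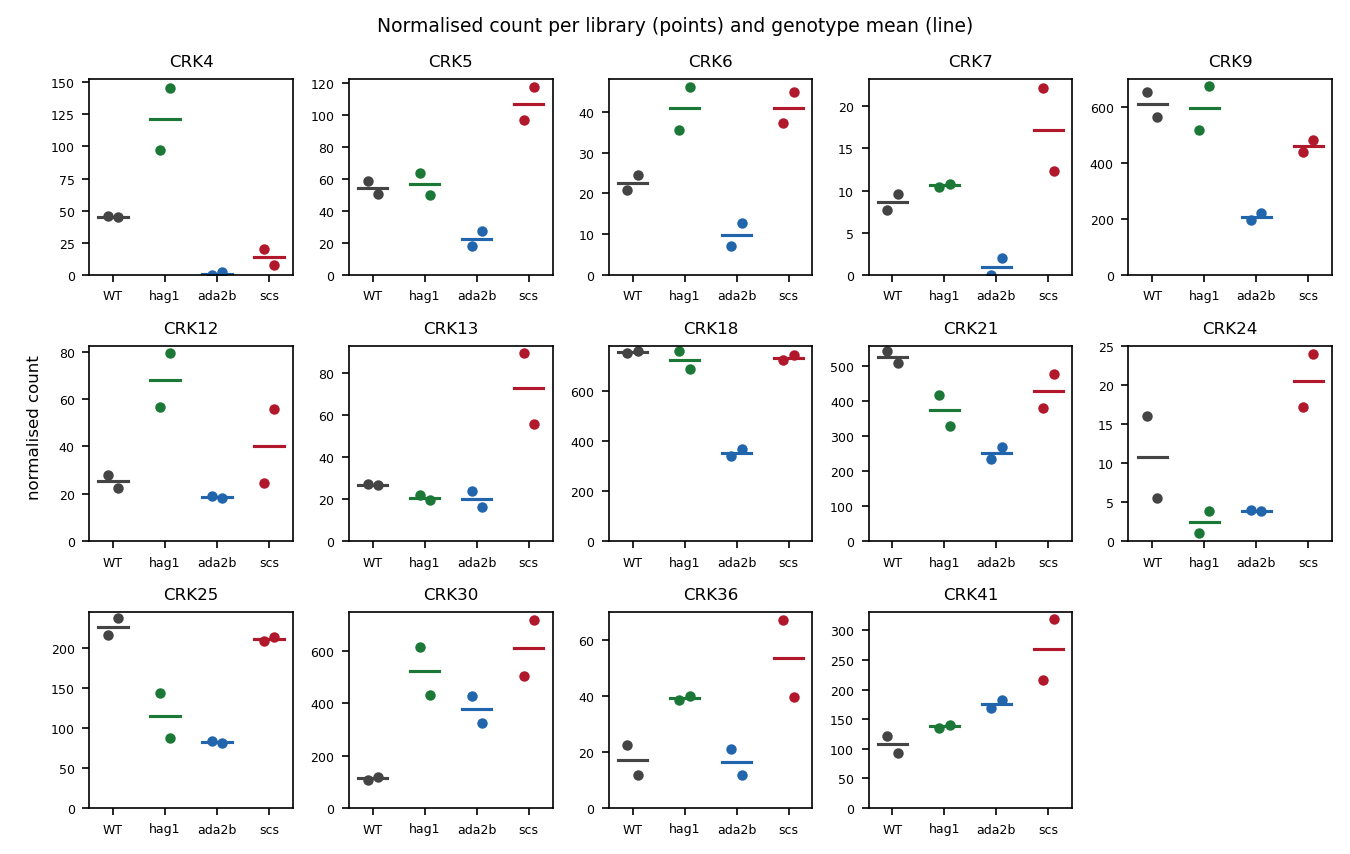
Normalised count in each library (points) and genotype mean (line) for the 14 members called with a log2 fold change of 1 or more in size against wild type, with wild type as WT and scs1 scs2a as scs. Both ada2b points lie below all others for CRK4, CRK5, CRK6, CRK7, CRK9, CRK12, CRK18, CRK21 and CRK25, and all mutant points for CRK30 lie above wild type.

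In ada2b, 12 members fell, led by CRK4 and CRK7. CRK4 (AT3G45860), whose overexpression raises defence and cell death, read 45.65 and 44.82 normalised counts in wild type and 0 and 1.958 in ada2b. By the estimated value of 1 read, that is 2 reads against 84, a ratio of 0.0224 with a 95% counting interval of 0.00266 to 0.0833. The fitted log2 fold change was -4.75 ± 0.57 (adjusted p = 0.000284, limma), which depends on the pseudocount. CRK7 (AT4G23150), which acts in responses to extracellular reactive oxygen, read 7.656 and 9.575 in wild type and 0 and 1.958 in ada2b, 2 reads against 16, a ratio of 0.117 with an interval of 0.0131 to 0.499 (adjusted p = 0.00536, limma). These intervals cover counting error only.

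CRK5 (AT4G23130), linked to cell death and leaf senescence, read 58.56 and 50.26 normalised counts in wild type and 18.02 and 27.31 in ada2b, a log2 fold change of -1.25 ± 0.25 (adjusted p = 0.0036, limma). CRK6 (AT4G23140), with CRK7 a part of the extracellular reactive oxygen response, read 20.74 and 24.48 against 7.009 and 12.69, a log2 fold change of -1.17 ± 0.31 (adjusted p = 0.015). CRK6 shares much of its sequence with CRK8, which did not pass the test (-0.23 ± 0.53, adjusted p = 0.746). In both cases the ada2b libraries lay below the wild type libraries.

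Abundant members fell in ada2b as well. CRK9 (AT4G23170) read 654.9 and 565.8 normalised counts in wild type and 195.2 and 221.0 in ada2b, a log2 fold change of -1.55 ± 0.14 (adjusted p = 5.32e-05, limma). CRK18 (AT4G23260) read 753.5 and 761.6 against 341.4 and 368.9, a log2 fold change of -1.09 ± 0.07 (adjusted p = 1.23e-05), although its hag1 and scs1 scs2a values did not pass the test. CRK21 (AT4G23290) read 542.2 and 508.0 against 234.2 and 269.7, a log2 fold change of -1.06 ± 0.14 (adjusted p = 0.000513). CRK25 (AT4G05200) read 216.6 and 237.7 against 84.09 and 81.74, a log2 fold change of -1.44 ± 0.21 (adjusted p = 0.000671). In each case both ada2b libraries lay below both wild type libraries. CRK40 (AT4G04570) read 777.2 and 758.5 in wild type, 403.4 and 410.7 in ada2b, and fell by 0.91 on the log2 scale (SE 0.097, adjusted p = 0.000149). CRK3 fell by 0.22 (SE 0.067, adjusted p = 0.0267).

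Besides CRK30 and CRK11, CRK41 (AT4G00970) rose in ada2b, from 122.4 and 92.1 normalised counts to 168.2 and 183.0, a log2 fold change of 0.72 ± 0.20 (adjusted p = 0.0162, limma). CRK41 has been linked to salt tolerance and microtubules. Of the 15 calls in ada2b, 10 held in all 16 alternative settings. Without 1 library, CRK3, CRK6, CRK16, CRK41 and CRK42 lost their calls in some settings. The calls of CRK6 ended without Col-0 replicate 2 (adjusted p = 0.0715) and without ada2b replicate 1 (0.0865), that of CRK16 without ada2b replicate 2 (0.059), and those of CRK41 without Col-0 replicate 2 (0.0934) or ada2b replicate 2 (0.0831). CRK42 lost its call without Col-0 replicate 2 (0.137) or ada2b replicate 1 (0.139), and CRK3 without Col-0 replicate 1 (0.179) or ada2b replicate 1 (0.144).

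In scs1 scs2a the called members mostly rose. CRK36 (AT4G04490), which works with the kinase BIK1 in immune signalling, read 22.61 and 11.89 normalised counts in wild type and 67.3 and 39.74 in scs1 scs2a, a log2 fold change of 1.60 ± 0.40 (adjusted p = 0.0264, limma). CRK13 (AT4G23210), whose overexpression gives cell death and resistance to bacteria, read 27.18 and 26.68 against 89.37 and 55.89, a log2 fold change of 1.36 ± 0.29 (adjusted p = 0.0143). CRK41 read 122.4 and 92.1 against 216.9 and 319.8, a log2 fold change of 1.30 ± 0.20 (adjusted p = 0.00343). All scs1 scs2a libraries were above the wild type libraries in these 3 genes.

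CRK5 rose from 58.56 and 50.26 to 96.58 and 117.3 normalised counts, by 0.96 ± 0.25 on the log2 scale (adjusted p = 0.0291, limma). In ada2b the same gene fell. CRK14 (AT4G23220) rose from 51.39 and 68.05 to 109.1 and 114.3, by 0.91 ± 0.18 (adjusted p = 0.0104). CRK29, which joins the immune receptor complex with CRK28, rose from 595.8 and 605.9 to 755.4 and 882.5, by 0.44 ± 0.10 (adjusted p = 0.0167). CRK28, whose gene model overlaps it, did not pass the test (0.32 ± 0.15, adjusted p = 0.172). CRK3 fell by 0.38 on the log2 scale (SE 0.067, adjusted p = 0.00639). CRK4 read 20.25 and 7.486 in scs1 scs2a against 45.65 and 44.82, but did not pass the test (-1.78 ± 0.57, adjusted p = 0.0612).

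Of the 11 calls in scs1 scs2a, the 3 of CRK11, CRK30 and CRK41 held in all 16 alternative settings. The calls of CRK3, CRK5, CRK13, CRK14, CRK16, CRK29, CRK36 and CRK42 ended without 1 or more libraries, with adjusted p-values of up to 0.229. The count of members called higher dropped from 8 to 4 without Col-0 replicate 1, Col-0 replicate 2 or scs1 scs2a replicate 2. The count called lower dropped from 3 to 1 without either Col-0 library, and to 0 without scs1 scs2a replicate 2. The count over all genes dropped from 5079 to 1683 without scs1 scs2a replicate 2.

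In hag1, 6 members rose and 8 fell. Besides CRK30 and CRK11, CRK12 (AT4G23200) rose from 28.16 and 22.49 normalised counts to 56.51 and 79.5, a log2 fold change of 1.38 ± 0.37 (adjusted p = 0.0159, limma). CRK36 rose from 22.61 and 11.89 to 38.6 and 40.2, by 1.21 ± 0.40 (adjusted p = 0.0383). CRK2, which phosphorylates the oxidase RBOHD to drive reactive oxygen production, rose from 626.8 and 558.3 to 783.3 and 853.9, by 0.47 ± 0.12 (adjusted p = 0.011). CRK19, whose overexpression raises defence, rose from 659.7 and 631.7 to 849.0 and 921.6, by 0.45 ± 0.06 (adjusted p = 0.000596). The hag1 libraries lay above the wild type libraries in all 4 genes.

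Falls in hag1 included CRK25, from 216.6 and 237.7 to 143.5 and 87.06 normalised counts, a log2 fold change of -1.02 ± 0.21 (adjusted p = 0.00414, limma). CRK26 (AT4G38830) fell from 25.06 and 27.7 to 16.62 and 9.771, by 0.99 ± 0.31 on the log2 scale (adjusted p = 0.0292). CRK34 (AT4G11530) fell from 145.5 and 133.5 to 86.45 and 74.46, by 0.79 ± 0.17 (adjusted p = 0.00623). CRK40 fell by 0.56 (SE 0.097, adjusted p = 0.00195) and CRK21 by 0.50 (SE 0.143, adjusted p = 0.0206). CRK24 (AT4G23320) read 16.08 and 5.486 in wild type and 1.071 and 3.934 in the hag1 libraries, a log2 fold change of -1.72 ± 0.56 (adjusted p = 0.036). This fall is counted among the members lower in hag1, but the value rule partly built it in. CRK24 met that rule only through Col-0 replicate 1 and the scs1 scs2a libraries. CRK4 read 97.33 and 145.3 in hag1, above both wild type libraries, but did not pass the test (1.38 ± 0.57, adjusted p = 0.0831).

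Of the 14 calls in hag1, 7 held in all 16 alternative settings, those of CRK11, CRK19, CRK25, CRK30, CRK34, CRK40 and CRK42. CRK24 lost its call in 9 of them, with adjusted p-values from 0.0508 with the replicate block to 0.233 without Col-0 replicate 1. CRK12 and CRK2 lost theirs without Col-0 replicate 2 (0.0721 and 0.0632) or hag1 replicate 2 (0.0941 and 0.0666), and CRK36 without Col-0 replicate 2 (0.206) or either hag1 library. CRK16, CRK21 and CRK26 lost theirs without some libraries, with adjusted p-values up to 0.151. The count called higher dropped from 6 to 3 without Col-0 replicate 2 or hag1 replicate 2, and the count called lower from 8 to 4 without Col-0 replicate 1.

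Members that did not pass the test in any comparison with wild type were CRK8, CRK10, CRK15, CRK17, CRK20, CRK22, CRK27 and CRK28. CRK10, whose gain of function dwarfs plants and alters the vasculature, read 763 to 769 normalised counts in wild type and 493 to 824 in the mutants. CRK20, whose overexpression raises defence, read 29.13 to 52.81 in wild type and 41.8 to 59.4 in the mutants. The log2 fold changes of these 8 members against wild type lay between -0.47 and 0.53.

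The mutants were also compared with each other. Against hag1, ada2b had 3 members higher and 13 lower, 48.5% of the members against 42.8% of all genes, of which 21.6% were higher and 21.2% lower. Among genes held to the members' value rule, 47.7% were called, 24.7% higher and 23% lower. The share of members called in either direction thus lay near the background. Of all calls here, 50.6% were higher, a share of 45.5% with median-ratio and 45.3% with upper-quartile scaling of the libraries. CRK4, at 97.33 and 145.3 normalised counts in hag1 against 0 and 1.958 in ada2b, differed most, 2 reads against 241, a ratio of 0.0081 with an interval of 0.000975 to 0.0296. CRK7 gave a ratio of 0.0929 (0.0106 to 0.38), a difference that the value rule partly built in. CRK6 was lower by 1.99 on the log2 scale, CRK12 by 1.78, CRK9 by 1.51, CRK5 by 1.31, CRK36 by 1.28 and CRK18 by 1.02, and CRK2, CRK3, CRK19, CRK21 and CRK40 were lower by less. CRK14, CRK34 and CRK42 were higher in ada2b than in hag1, by 0.71, 0.55 and 0.39. By 1 or more on the log2 scale, 8 members were lower and 0 higher, 24.2% and 0% of the members, against 8.08% and 2.6% of all genes. The count of higher calls was 1 without ada2b replicate 2. Of these 16 calls, 8 held in all 16 alternative settings.

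Against hag1, scs1 scs2a had 11 members higher and 4 lower, 45.5% of the members against 30.1% of all genes, of which 15.2% were higher and 14.9% lower. The share called was 33.7% among genes held to the members' value rule, 17.1% higher and 16.6% lower. CRK24 at 17.17 and 23.89 normalised counts against 1.071 and 3.934 was higher by 2.73 ± 0.56 (adjusted p = 0.00782, limma), a rise that the value rule partly built in. CRK13 was higher by 1.72, CRK14 by 1.25, CRK26 by 1.06 and CRK34 by 1.004, while CRK5, CRK25, CRK27, CRK29, CRK40 and CRK41 were higher by 0.55 to 0.93. CRK4 was lower by 3.16 ± 0.57 (adjusted p = 0.00452, limma), a call that ended with a pseudocount of 0.1 (adjusted p = 0.0812). CRK2, CRK3 and CRK19 were lower by 0.37 to 0.58. By 1 or more on the log2 scale, 5 members were higher and 1 lower, 15.2% and 3.03% of the members, against 3.11% and 3.39% of all genes. The count of higher calls dropped from 11 to 7 without scs1 scs2a replicate 1 and to 5 without replicate 2. Of the 15 calls, 7 held in all 16 alternative settings.

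Between scs1 scs2a and ada2b, 16 members were higher in scs1 scs2a and 0 lower, 48.5% of the members against 29.7% of all genes, of which 14.8% were higher and 14.9% lower. The share called was 33.5% among genes held to the members' value rule, 16.4% higher and 17.1% lower. Of all calls in this comparison, 49.9% were higher, and this share was 60.2% with median-ratio scaling and 61.9% with upper-quartile scaling of the libraries, with 18 members higher in each. By limma's unadjusted p under 0.05, 20 members were higher and 2 lower, and 1 member was called lower without scs1 scs2a replicate 2. The median log2 difference over the 33 members was 0.56, against -0.03 over all genes. By 1 or more on the log2 scale, 11 members were higher and 0 lower, 33.3% of the members, against 5.88% higher and 0.829% lower among all genes. Both the 16 and the 11 include CRK7 and CRK24, whose differences the value rule partly built in. Over all 39 CRK genes tested, which did not have to meet that rule, 18 were higher and 0 lower, 46.2%. By 1 or more, 13 of these were higher, 33.3%.

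CRK7 at 22.13 and 12.28 normalised counts in scs1 scs2a against 0 and 1.958 in ada2b gave 36 reads against 2, a ratio of 18 with an interval of 4.64 to 155. CRK4 gave 29 reads against 2, a ratio of 14.5 (3.67 to 126). CRK5 was higher by 2.21 ± 0.25 on the log2 scale (adjusted p = 0.000598, limma), CRK24 by 2.10, CRK6 by 2, CRK13 by 1.78, CRK36 by 1.66 and CRK25 by 1.34. CRK9 was higher by 1.15, CRK40 by 1.08 and CRK18 by 1.05, and CRK21, CRK27, CRK28, CRK29 and CRK30 by 0.37 to 0.76. CRK2, CRK11, CRK19 and CRK20 did not pass the test, with log2 differences of -0.09, -0.29, 0.03 and 0.14. The rises of CRK7 and CRK24 are partly built in by the value rule. Of the 16 calls, 8 held in all 16 alternative settings, and the count was 10 without ada2b replicate 2.

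**Figure D4:**
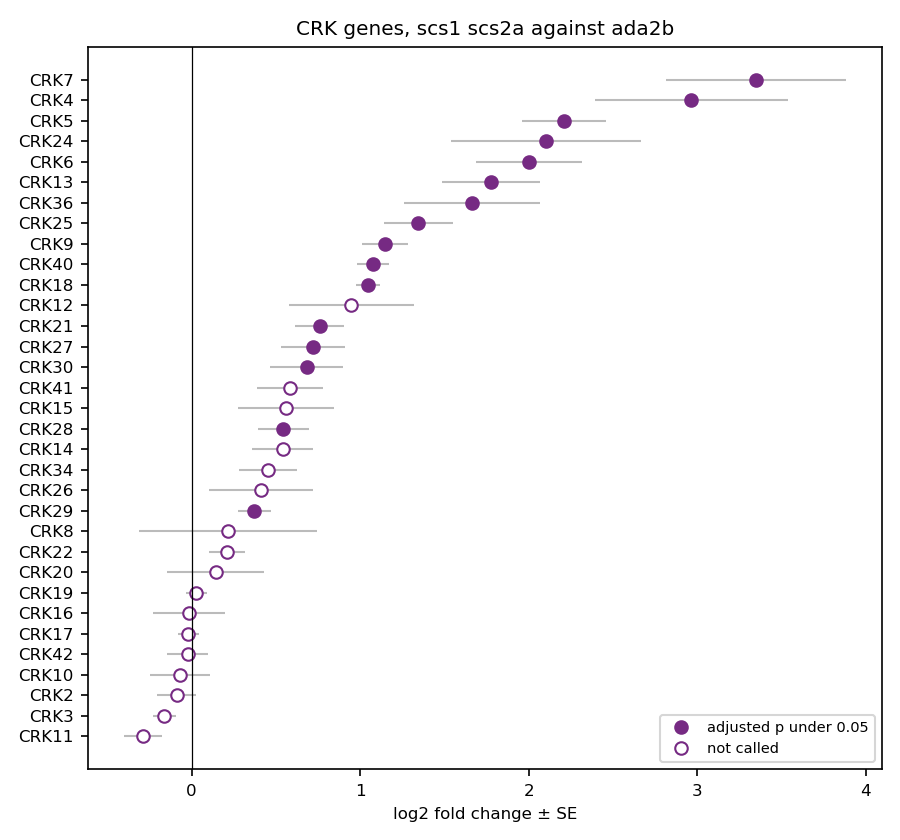
Log2 difference of scs1 scs2a from ada2b with its standard error for the 33 members, ordered by size, with filled points where the adjusted p was under 0.05. CRK7 and CRK4 lead, and none of the filled points lies left of 0.

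A run of 20 CRK loci, CRK5 to CRK24, stands in a row on chromosome 4 (TAIR10.1 chr4:12117491-12191704), within 74.2 kb, with 11 on the minus strand and 9 on the plus strand. Of the 19 that met the value rule, 3 rose and 3 fell in hag1, 1 rose and 7 fell in ada2b, and 4 rose and 1 fell in scs1 scs2a. Of the 14 members elsewhere, 3 rose and 5 fell, 2 rose and 5 fell, and 4 rose and 2 fell in the same order. As shares, 15.8% of the row rose and 15.8% fell in hag1. For ada2b these shares were 5.26% and 36.8%, and for scs1 scs2a 21.1% and 5.26%. Elsewhere the shares were 21.4% and 35.7%, 14.3% and 35.7%, and 28.6% and 14.3%. Over all genes they were 21.3% and 23%, 24.7% and 23.4%, and 7.86% and 12.1%. The hag1 shares of the row, 3 of 19 genes in each direction, lay near the background. Direction could differ between neighbours. CRK11 rose in ada2b while CRK9 fell, and CRK10 between them did not pass the test (-0.11 ± 0.18, adjusted p = 0.649). CRK13 and CRK14 rose in scs1 scs2a, and CRK16 fell. Of the 16 loci flanking the row, 6 were tested. AT4G23050 was lower in hag1 (-0.65 ± 0.08, adjusted p = 0.00037, limma) and in ada2b (-0.24 ± 0.08, adjusted p = 0.0413). AT4G23340 read 11.96 and 11.74 normalised counts in wild type and 0 to 3.13 in the mutants. GSH1, the enzyme of the first step in glutathione synthesis, rose in scs1 scs2a (0.22 ± 0.06, adjusted p = 0.0295), with values of 0.15 in hag1 and in ada2b that did not pass the test.

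**Figure D5:**
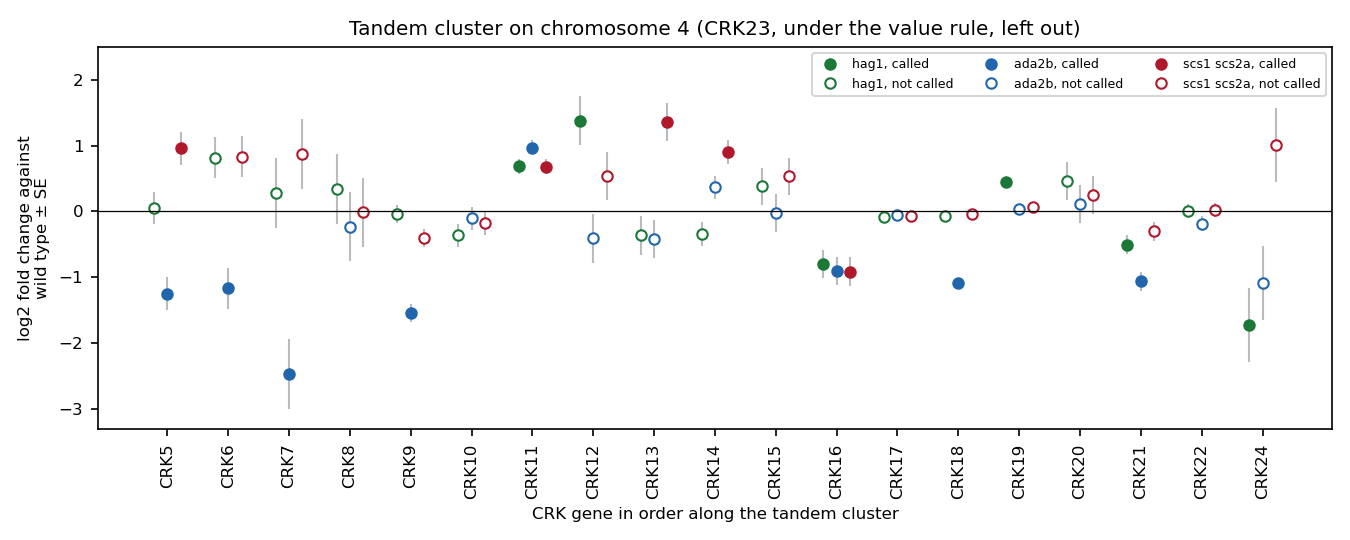
Log2 fold change against wild type with its standard error for the 19 members of the chromosome 4 row, in order along the chromosome, with a point for each mutant and filled points where the adjusted p was under 0.05. CRK11 lies above 0 and CRK16 below 0 with filled points in all 3 colours, and the lowest filled point is CRK7 in ada2b at -2.48.

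Related genes were described for comparison from 5 lists. Their counts stand against the shares of all genes called higher and lower, which were 21.3% and 23% for hag1, 24.7% and 23.4% for ada2b, and 7.86% and 12.1% for scs1 scs2a. Of 9 relatives that carry DUF26 domains without a kinase, the plasmodesmata-located proteins PDLP1 to PDLP8 and a secreted protein, 1 rose and 3 fell in hag1, 2 rose and 7 fell in ada2b, and 2 rose and 2 fell in scs1 scs2a, with medians of -0.51, -0.95 and -0.37. That is 11.1% higher and 33.3% lower, 22.2% and 77.8%, and 22.2% and 22.2%. HWI1, a name of PDLP5, read 165.2 and 159.0 normalised counts in wild type and 44.05 and 58.47 in ada2b (-1.66 ± 0.16, adjusted p = 7.63e-05, limma), and PDLP6 read 217.2 and 194.4 against 76.07 and 54.38 (-1.66 ± 0.19). PDLP2 fell in all 3 mutants, by 0.69, 0.77 and 0.37, and PDLP3 fell in ada2b, by 0.81.

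Among 21 genes of pattern-triggered immunity, 7 rose and 3 fell in hag1, 6 rose and 4 fell in ada2b, and 6 rose and 2 fell in scs1 scs2a, with medians of 0.11, 0.14 and 0.12. That is 33.3% higher and 14.3% lower, 28.6% and 19%, and 28.6% and 9.52%, against 21.3% and 23%, 24.7% and 23.4%, and 7.86% and 12.1% of all genes, so the ada2b shares lay near the background. RBOHD, the oxidase that CRK2 phosphorylates, fell in all 3, and in ada2b from 1809 and 1919 to 587.6 and 631.7 normalised counts (-1.61 ± 0.06, adjusted p = 1.73e-06, limma). BIK1 rose in all 3 (1.25, 0.74 and 0.52). The oxidase gene RBOH F fell in hag1 (-0.50) and ada2b (-0.97), and the transcription factor gene WRKY33 rose in hag1 (1.43) and ada2b (1.98).

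Of 16 genes of salicylic acid synthesis and response, 7 rose in hag1, 1 rose and 4 fell in ada2b, and 1 rose in scs1 scs2a, with medians of 0.51, -0.43 and 0.36. That is 43.8% higher in hag1, 6.25% higher and 25% lower in ada2b, and 6.25% higher in scs1 scs2a. Over all genes 21.3% were higher in hag1, 23.4% lower in ada2b and 7.86% higher in scs1 scs2a, so the falls in ada2b and the rise in scs1 scs2a lay near the background. SARD1, an activator of salicylic acid synthesis, rose in all 3 (1.45, 0.50 and 0.46), and the factors WRKY54 and WRKY70 rose in hag1 (1.92 and 1.79). The antifungal protein gene PR5 fell in ada2b from 119.2 and 171.2 to 22.02 and 25.32 normalised counts (-2.55 ± 0.24, adjusted p = 8.23e-05, limma). In the group of 5 wall-associated kinases, 2 rose and 1 fell in hag1, 4 fell in ada2b, and 1 rose in scs1 scs2a, with medians of 0.03, -1.29 and -0.03. That is 40% higher and 20% lower, 80% lower, and 20% higher, of only 5 genes. WAK1 rose in hag1 (1.08) and fell in ada2b (-1.29), WAK2 fell in ada2b (-0.99), WAK3 rose in hag1 (2.10) and scs1 scs2a (1.59), and WAK5 was at 7.42 normalised counts or less in every library. In an oxidative stress list of 10 genes, 3 rose and 1 fell in hag1, 4 rose and 3 fell in ada2b and 2 rose and 1 fell in scs1 scs2a, with medians of 0.22, 0.14 and 0.25. That is 30% higher and 10% lower, 40% and 30%, and 20% and 10%, of 10 genes. APX1, a cytosolic ascorbate peroxidase, rose in all 3 (0.72, 0.51 and 0.35). RHL41, a zinc finger factor of stress responses, rose in hag1 (2.71) and ada2b (1.86), and the catalase gene CAT2 rose in ada2b (0.46) and scs1 scs2a (0.42). GSTU1, a glutathione transferase, fell in all 3 (-0.81, -0.91 and -0.57).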

How the data were processed

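Seedling RNA from 8 libraries was read as single ends of 50 bp, by the protocols in the labels. The deposited table holds 1 normalised count signal per gene and library, which need not be whole. HISAT2, edgeR and TAIR10 are named, without versions or roles, per the submitters' processing notes. The counter, the annotation and any use of strand were not given in the sources used here. The lowest values sat near multiples of 1 read (0.948 to 1.09 by library). Only 89.7 to 100% of them fell within 0.1 of a whole read, so the values were not converted to reads and count tests were not used. Estimated reads served for the 95% counting intervals (exact Poisson ratio), which cover counting error only.

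limma 3.58.1 in R 4.3.3 was run on log2(value + 1) for the 25459 of 32548 genes that reached 1 in 2 or more libraries. Genotype was the only term over all 8 libraries (4 residual and 4.42 prior degrees of freedom), with a trend on mean level and two-sided tests. Adjusted p-values are Benjamini-Hochberg over all these genes in each of 6 contrasts. The fit was also run on simulated counts, with the same spread setting for every gene and few changed genes. Those settings differ from these data, so that run does not check the calls given here. The naming rule took every member once, library values for members called with a log2 fold change of 1 or more in size, and up to 4 genes per related list or flanking group. Library values of further members were added after they were seen. Members and lists were chosen with earlier results of these data known. Gene models and promoter windows come from RefSeq TAIR10.1, matched by locus identifier, since the table holds no coordinates. Alternatives were scaling by median ratio or by upper quartile, a floor of 10 or of any value above 0, pseudocounts of 0.1 and 5, a replicate block, fits of the 2 genotypes compared, and each library left out.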

Additional observations from a re-analysis of the deposited data

How the results depend on the processing

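Of 87 calls over the 6 comparisons, 43 held in all 16 alternatives and 44 ended in at least 1, and no called member changed sign. Keeping every gene above 0 in 1 library left 3 members higher and 5 lower in hag1, 4 higher and 1 lower in scs1 scs2a (2798 genes in all), 1 higher and 8 lower in ada2b against hag1, 5 higher in scs1 scs2a against hag1 and 8 higher in scs1 scs2a against ada2b. The floor of 10 gave 5 members lower in scs1 scs2a. The cause of these shifts was not tested. Leaving out each library in turn gave 3 to 8 members higher and 4 to 7 lower in hag1, and 4 to 8 higher and 0 to 4 lower in scs1 scs2a, with 1683 to 5161 genes in all. It gave 1 to 4 members higher in ada2b against hag1. It gave 5 to 12 higher in scs1 scs2a against hag1, with 4339 to 7335 genes in all. Against ada2b it gave 10 to 18 higher and 0 to 1 lower, with 3974 to 7679 genes in all. Libraries with the same replicate number did not deviate together (correlations -0.05 to 0.06), so the numbers were not taken to pair them. With the replicate block, hag1 had 7 members higher and 7 lower, ada2b 3 and 12, and scs1 scs2a 8 and 3. Under the block CRK24 in hag1 and CRK30 between scs1 scs2a and ada2b lost their calls (adjusted p = 0.0508 and 0.0593, limma). Members of a few reads, such as CRK4 and CRK7 in ada2b and CRK24 in hag1, are limited by depth. The 2 reads of CRK4 and of CRK7 in ada2b allow a wide range of ratios.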
